A study of Mus musculus with 9 samples.

Results

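The DNA replication and S phase genes described here are 44 mouse genes whose products license replication origins, unwind and copy DNA, supply deoxynucleotides, load histones on new DNA or drive entry into S phase. A probe set (a group of array probes for one transcript) was taken for a gene where the annotation of the array platform named that gene alone, by its symbol or an older alias. Such probe sets were found for 43 of the 44 genes, and 41 had a signal over 500 on at least 1 array and were tested, among 7952 tested genes of 18193 that a probe set named alone. Expression was measured in mouse ovarian surface epithelial (MOSE) cells, an ovarian cancer progression model from C57BL6 mice in which cells of 1 series transformed spontaneously while they were passaged in culture, with no introduced gene or drug. The 9 arrays (Affymetrix Mouse Genome 430 2.0, biotin-labelled cRNA from total RNA) comprised 3 of early cells (MOSE-E, labelled non-malignant, passages 13, 14 and 15), 3 of intermediate cells (MOSE-I, passages 63, 71 and 73) and 3 of late cells (MOSE-L, labelled malignant, passages 136, 142 and 143), numbered replicates 1 to 3 in that order. The comparisons ask how replication genes change as the cells progress. All cultures descend from the same cells and were harvested before they were confluent, so that p-values measure the spread between passages of one model, and the density of each culture at harvest is not given in the sources used here.

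Replication is prepared in G1, when the origin recognition complex, Cdc6 and Cdt1 load the MCM helicase onto origins, and it starts in S phase, when Cdc45 and the GINS complex turn the helicase on. Primase and polymerase alpha then start each strand, the clamp loader sets the sliding clamp around the primed DNA, polymerases delta and epsilon extend it, and the pieces of the lagging strand are processed and joined. Many of these genes are transcribed in late G1 and S phase under E2F transcription factors, so their mRNAs are used as signs of dividing cells in the surface epithelium of the ovary and in other tissues.

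The deposited signals are linear MAS 5.0 intensities, with array medians of 93.2 to 130.0. Changes are given as differences of log2(signal + 50) ± the standard error of the fit, from limma with Benjamini-Hochberg adjustment over 13845 probe sets, and a gene was called where its adjusted p was 0.05 or less and its log2 change was 1 or more in size. The added 50 understates the change of dim genes, and levels are compared between arrays only, not between genes. The cells carried markers of their labelled type: 10 of 10 genes of ovarian surface epithelium and mesothelium exceeded 500 on an array at the MOSE-E and MOSE-I stages, and 9 of 10 did so at the MOSE-L stage, where keratin 7 (Krt7) did not. Summed signals of these 10 genes were 93717 to 103434 at the MOSE-E, 64022 to 90143 at the MOSE-I and 70990.2 to 87013 at the MOSE-L stage. The genes moved apart within this sum. In MOSE-L against MOSE-E cells Krt7, Krt8, Krt19 and Lrrn4 were called lower, and Krt18, Msln, Upk3b, Upk1b, Wt1 and Gpm6a were not called. In MOSE-L against MOSE-I cells Krt8 was called lower and Msln, Wt1 and Gpm6a were called higher. Summed smooth muscle markers were 33037 to 93513 at the MOSE-E, 7015 to 30244 at the MOSE-I and 583 to 1796 at the MOSE-L stage, and summed fibroblast markers were 51953 to 125439 at the MOSE-E, 27801 to 80221 at the MOSE-I and 36944 to 48675 at the MOSE-L stage. Fibroblast markers also moved apart in MOSE-L against MOSE-E cells, with Col1a1 and Col1a2 called lower, Dcn called higher and Col3a1 and Pdgfra not called. Col1a2 was at 22129 to 45780 in MOSE-E and 195 to 277 in MOSE-L cells, and Dcn at 3752 to 6646 and 19342 to 27205. Of 5 endothelial and 4 granulosa cell markers 0 exceeded 500 at any stage, and of 6 macrophage markers 2 did, Cd14 at each stage (up to 586 at the MOSE-E, 1264 at the MOSE-I and 1130 at the MOSE-L stage) and Csf1r at the MOSE-I stage (up to 595), while Ptprc, which defines leukocytes, was at 51.9 or less on all arrays. The part of the smooth muscle and fibroblast differences in the changes below was not tested. In bulk cultures, fewer cells in S phase and less RNA of a gene per cell cannot be told apart. The paper on these cells refers to an earlier report that MOSE-L cells grow faster and that proliferation increased with progression. Growth is not measured by the arrays, and its relation to the changes below was not tested.

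Most replication genes had their lowest mean signal in MOSE-L cells and their highest in MOSE-I cells. In MOSE-L against MOSE-E cells, 13 of the 41 tested genes (31.7%) fell and 0 rose, where 7.49% of all tested genes fell and 8.11% rose. The median log2 change of the 41 genes was -0.90, beside 0.03 over all tested genes. Of the 41 changes 38 were negative (39 with each array centred on its median, where that of Rpa3 turned negative), beside 3795 of 7952 over all tested genes. In MOSE-L against MOSE-I cells, 27 of 41 (65.9%) fell and 0 rose, where 6.04% of all tested genes fell and 7.38% rose. The median was -1.34, and 41 of 41 changes were negative under each of the 3 scalings tried, beside 4072 of 7952 over all tested genes. In MOSE-I against MOSE-E cells, limma called 0 of 41. An unadjusted p of at most 0.05 from limma was found for 11 of 41, beside 2372 of all 7952 tested genes. Of the 41 changes 35 were positive, with a median of 0.42, beside 4196 of 7952 and a median of 0.03 over all tested genes. Of all tested genes 2.29% rose and 3.61% fell between these stages. Both MOSE-L comparisons share the MOSE-L arrays, and both MOSE-E comparisons share the MOSE-E arrays.

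The order of the arrays showed the same course without a threshold. In 28 of 41 genes all 3 MOSE-I arrays lay above all 3 MOSE-E arrays, as in 23.4% of all tested genes, and the MOSE-I mean was the highest of the 3 stages in 36 of 41, as in 33.9% of all tested genes. In 34 of 41 all MOSE-L arrays lay below all MOSE-I arrays, against a background of 23.5%, and in 20 of 41 they lay below all MOSE-E arrays, against 21.7%.

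**Figure D1:**
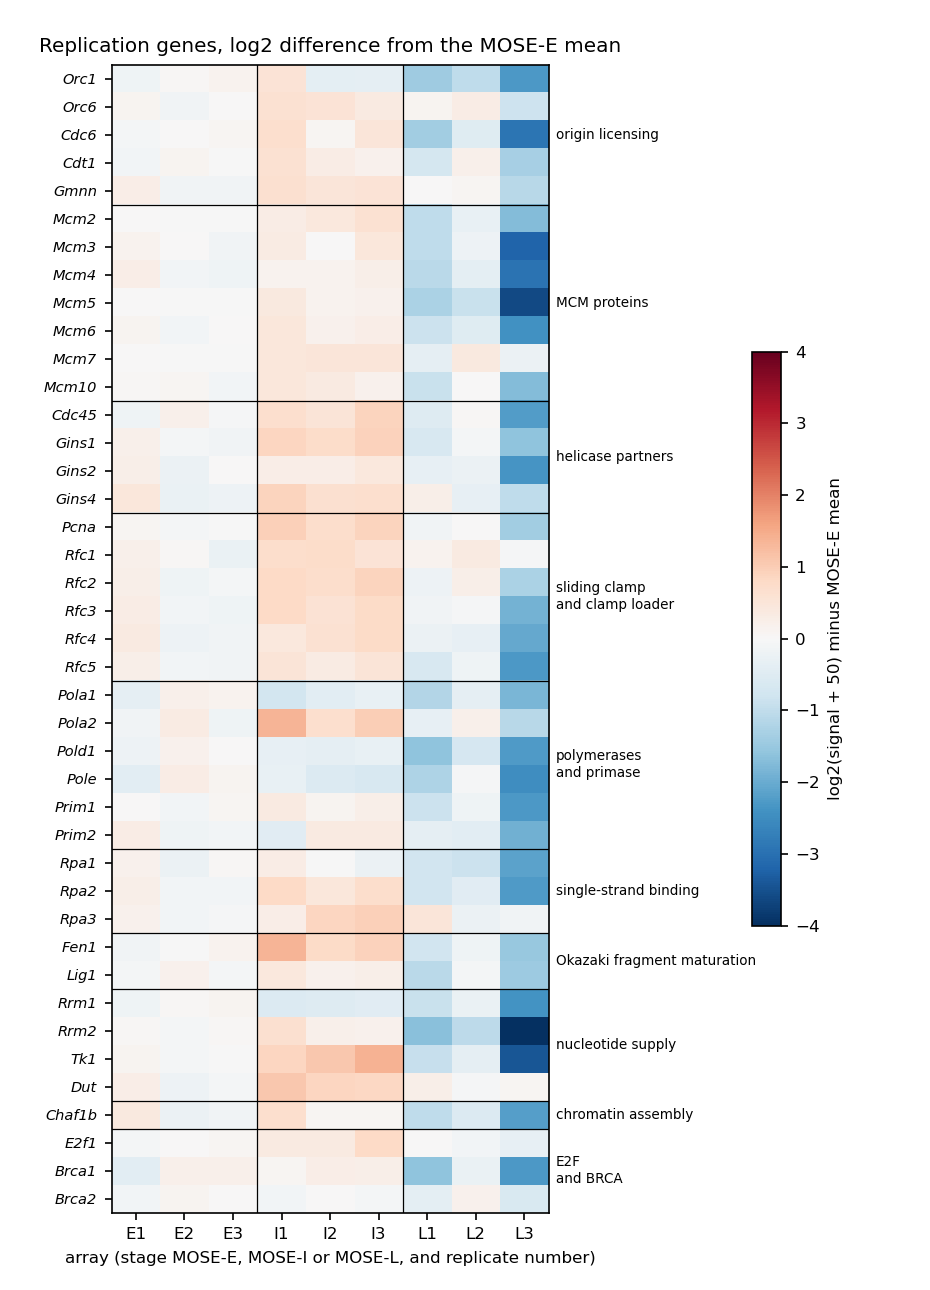
Log2(signal + 50) of each of the 41 tested genes (rows, by role) on the 9 arrays (columns, E1 to L3 for stage and replicate), as the difference from the gene's MOSE-E mean, with red above and blue below it. The MOSE-I columns are mostly red, and the column of MOSE-L replicate 3 is the darkest blue, with 37 of 41 genes at their lowest there.

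The MOSE-L arrays did not agree on the size of the fall, and MOSE-L replicate 3, of passage 143, lay lowest. It was the lowest of the 9 arrays in 37 of 41 genes, as in 22.9% of all tested genes. The median of the 41 genes, relative to each gene's MOSE-E mean, was 0.07, -0.06 and -0.02 on the MOSE-E arrays, 0.46, 0.35 and 0.45 on the MOSE-I arrays and -0.76, -0.19 and -1.91 on MOSE-L replicates 1, 2 and 3. Over all tested genes that median was 0.03 on each MOSE-L array. MOSE-L replicate 2 was the highest of the MOSE-L arrays in 34 of the 41 genes. MOSE-L replicate 1 lay below the lowest MOSE-E array in 33 genes, replicate 2 in 23 and replicate 3 in 39. No share over all tested genes was taken for the highest MOSE-L array or for single MOSE-L arrays below MOSE-E. Those counts only describe the 41 genes.

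Replicate 3 of MOSE-L was lower than the mean of the other 2 MOSE-L arrays by a median of 1.32 on the log2 scale over the 41 genes, beside 0.02 over all tested genes. The 3' to 5' signal ratio of the Actb control probes, a sign of RNA integrity, was 1.34, 1.45 and 1.83 on MOSE-L replicates 1 to 3, against 1.12 to 1.38 on the other 6 arrays, while that of the Gapdh control probes was 0.735, 0.739 and 0.727, against 0.744 to 0.810. Their part in the low replication signals of replicate 3 was not tested.

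Without MOSE-L replicate 3, Orc1, Mcm5, Pold1 and Rrm2 were called lower in MOSE-L against MOSE-E cells, all of them among the 13, so that 4 of 41 were called where 5.99% of all tested genes were. The median log2 change was then -0.44, and the changes of Orc6 (0.19), Gmnn (0.05), Mcm7 (0.02) and Rfc2 (0.02) turned positive. In MOSE-L against MOSE-I cells 11 of 41 were called without that array, all of them among the 27, where 3.77% of all tested genes were, with a median of -0.84. In MOSE-I against MOSE-E cells 3 rose without it, namely Pola2, Fen1 and Tk1, where 2.92% of all tested genes rose, and 13 of 41 were higher at an adjusted p of at most 0.05 whatever the size of the change, where 10.1% of all tested genes were. With all 9 arrays that last count was 2, Dut and Rfc1, beside a background of 5.31%. The count of calls in MOSE-L against MOSE-E cells was also lower when a MOSE-E array was left out, at 5, 3 and 2 of 41 without replicate 1, 2 or 3, where 7.23%, 5.38% and 4.98% of all tested genes were called, so that the share without replicate 3 was no higher than the background. It reached 25 without MOSE-L replicate 2, beside 8.6%. The count in MOSE-L against MOSE-I cells was 10, 17 and 12 without MOSE-I replicate 1, 2 or 3, beside 4.77%, 5.28% and 4.05%. Whichever single array was left out, Orc1 and Pold1 stayed called in MOSE-L against MOSE-E cells. In MOSE-L against MOSE-I cells Orc1, Cdc6, Mcm2, Gins1, Pola2, Rpa2, Fen1, Rrm2 and Tk1 stayed called, although this last call of Orc1 ended with the mean over its 2 probe sets. These calls refer to the probe set used for each gene. With all arrays, the other tested probe set of Orc1, Mcm5 and Pold1 was not called against MOSE-E cells. The changes there were -1.23 (adjusted p = 0.0726), -1.39 (adjusted p = 0.0543) and -0.93 (adjusted p = 0.0326).

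**Figure D2:**
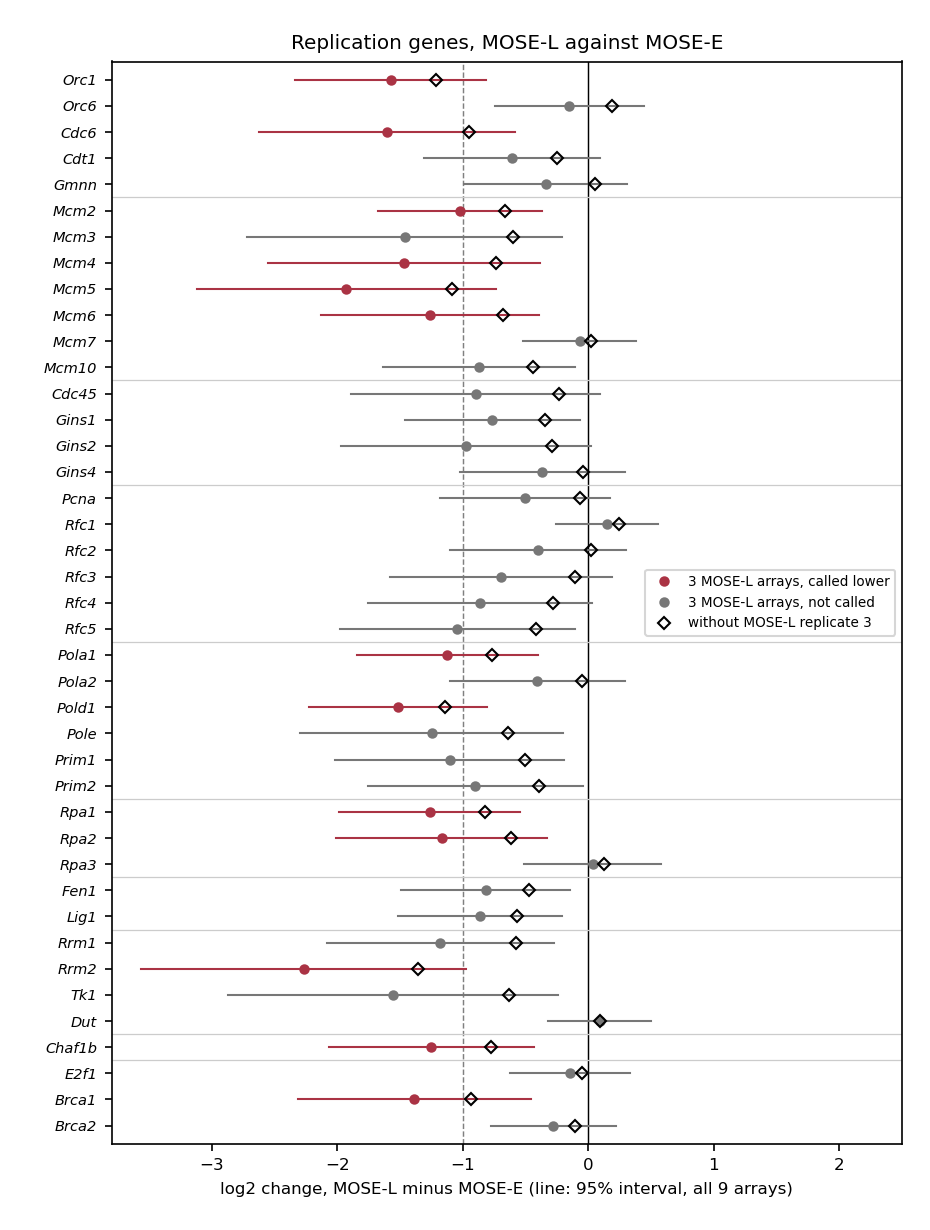
Log2 change in MOSE-L against MOSE-E cells for the 41 tested genes, as filled points with the 95% interval of the fit, in red for the 13 called genes, and as open diamonds without MOSE-L replicate 3. Most diamonds lie nearer to 0 than the points, and Orc1, Mcm5, Pold1 and Rrm2 keep changes beyond -1.

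Of the 5 tested origin licensing genes, Orc1 and Cdc6 fell in MOSE-L cells against both earlier stages. Orc1, the large subunit of the origin recognition complex, measured 569, 665 and 709 in MOSE-E, 972, 479.9 and 493 in MOSE-I and 211, 293 and 92.1 in MOSE-L cells. Every MOSE-L array lay below every other array, and Orc1 fell by 1.57 in MOSE-L against MOSE-E cells (adjusted p = 0.00863) and by 1.51 in MOSE-L against MOSE-I cells (adjusted p = 0.0126). The MOSE-I arrays of Orc1 were split, with replicate 1 above all MOSE-E arrays and replicates 2 and 3 below them. On the second tested probe set of Orc1, MOSE-L cells gave 58.1, 416 and 161, with replicate 2 above all MOSE-I arrays and above MOSE-E replicate 1, at 355. The changes on that probe set were -1.23 (adjusted p = 0.0726) against MOSE-E and -0.31 (adjusted p = 0.634) against MOSE-I cells, neither called. Cdc6, the ATPase that loads the helicase together with Cdt1, gave 1218, 1298 and 1373 in MOSE-E, 2104, 1372 and 1840.1 in MOSE-I and 459, 901 and 129 in MOSE-L cells. The MOSE-L arrays spread widely but stayed below the rest, with log2 changes of -1.60 ± 0.46 (adjusted p = 0.0283) against MOSE-E and -2.02 ± 0.46 (adjusted p = 0.0128) against MOSE-I cells. The first of these calls ended without MOSE-L replicate 3, at -0.95 (adjusted p = 0.0354), and without any 1 MOSE-E array (highest adjusted p = 0.0852). Cdt1, geminin (Gmnn), which inhibits Cdt1, and the small origin recognition subunit Orc6 were not called in any comparison. Their log2 changes in MOSE-L against MOSE-E cells were -0.61, -0.34 and -0.15, and those in MOSE-L against MOSE-I cells were -0.96, -0.91 and -0.66.

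MCM genes encode the ring of 6 related subunits, Mcm2 to Mcm7, that unwinds DNA at the fork, and Mcm10, which helps to start it. Of these 7 genes, 4 fell in MOSE-L against MOSE-E cells (Mcm2, Mcm4, Mcm5 and Mcm6) and 6 fell in MOSE-L against MOSE-I cells, all but Mcm7. All 7 changes in MOSE-I against MOSE-E cells were positive, at 0.17 to 0.48, and 0 were called. Mcm2 measured 2336, 2280.4 and 2283 in MOSE-E, 2810.1, 3070.4 and 3519 in MOSE-I and 1104, 1849.9 and 657 in MOSE-L cells. Mcm4 measured 7836, 6005 and 5728 in MOSE-E, 7154, 7085 and 7645 in MOSE-I and 3049, 4891 and 799.5 in MOSE-L cells. Mcm5 measured 8020.3, 7976 and 7986 in MOSE-E, 10592, 8764 and 8986 in MOSE-I and 3293, 4258 and 602 in MOSE-L cells. In these 3 genes the MOSE-L arrays all lay below both earlier stages, and MOSE-L replicate 2 kept the most and replicate 3 the least signal. Their log2 changes in MOSE-L against MOSE-E cells were -1.02 ± 0.30 (adjusted p = 0.0289) for Mcm2, -1.47 ± 0.49 (adjusted p = 0.0484) for Mcm4 and -1.93 ± 0.54 (adjusted p = 0.0249) for Mcm5. In MOSE-L against MOSE-I cells they were -1.45 ± 0.30 (adjusted p = 0.00808) for Mcm2, -1.64 ± 0.49 (adjusted p = 0.0329) for Mcm4 and -2.17 ± 0.54 (adjusted p = 0.0175) for Mcm5.

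Mcm6 signals were 5733, 4952 and 5336 in MOSE-E, 7262, 6041 and 6441 in MOSE-I and 2888, 3786 and 954 in MOSE-L cells. The MOSE-L arrays were again the 3 lowest, with changes of -1.26 ± 0.39 (adjusted p = 0.0372) against MOSE-E and -1.56 ± 0.39 (adjusted p = 0.0182) against MOSE-I cells. Mcm3 signals were 3144, 2897 and 2609 in MOSE-E, 3590.2, 2917 and 3937 in MOSE-I and 1403, 2515 and 271 in MOSE-L cells. The MOSE-L arrays of Mcm3 also lay below all others, but its change of -1.46 ± 0.57 (adjusted p = 0.0799) against MOSE-E cells was not called, and that of -1.72 ± 0.57 (adjusted p = 0.0456) against MOSE-I cells was. Mcm10 gave 704, 717 and 629 in MOSE-E, 949, 884 and 780.5 in MOSE-I and 347, 686 and 168 in MOSE-L cells, so that MOSE-L replicate 2 lay within the range of the MOSE-E arrays, and it fell only against MOSE-I cells, by 1.20 ± 0.35 (adjusted p = 0.029). Without MOSE-L replicate 3, the changes of Mcm2, Mcm4 and Mcm6 against MOSE-E cells were -0.67 (adjusted p = 0.0565), -0.73 (adjusted p = 0.0437) and -0.68 (adjusted p = 0.0254), none of them called, and those of Mcm3, Mcm4, Mcm6 and Mcm10 against MOSE-I cells were -0.86 (adjusted p = 0.0428), -0.91 (adjusted p = 0.0254), -0.98 (adjusted p = 0.00789) and -0.77 (adjusted p = 0.0648), likewise not called. Leaving out single MOSE-E arrays ended the MOSE-E calls of Mcm2, Mcm4, Mcm5 and Mcm6 (highest adjusted p over all single arrays left out 0.0838, 0.120, 0.0724 and 0.0999), and leaving out single MOSE-I arrays ended the MOSE-I calls of Mcm3, Mcm4, Mcm5, Mcm6 and Mcm10 (highest adjusted p 0.117, 0.0860, 0.0545, 0.0559 and 0.0801). Leaving out MOSE-L replicate 1 ended the MOSE-E calls of Mcm2 and Mcm4, leaving out any 1 MOSE-I array that of Mcm4, leaving out MOSE-I replicate 2 or 3 that of Mcm6, and leaving out any 1 MOSE-E array the MOSE-I call of Mcm3.

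Mcm7, a subunit of the same ring, was not called in any comparison. It measured 9241, 9101 and 9038 in MOSE-E, 12568, 12843 and 12849 in MOSE-I and 7090.1, 12044 and 7704 in MOSE-L cells. The MOSE-I arrays were the 3 highest, MOSE-L replicate 2 lay close to them, and MOSE-L replicates 1 and 3 lay below the MOSE-E arrays, with a change of -0.07 ± 0.20 (adjusted p = 0.827) in MOSE-L against MOSE-E cells and a 95% interval of -0.52 to 0.38. Relative to the mean of Mcm2 to Mcm6 on the same array and to the MOSE-E mean, Mcm7 stood at -0.09, 0.04 and 0.05 on the MOSE-E arrays, 0.14, 0.32 and 0.15 on the MOSE-I arrays and 0.69, 0.85 and 2.54 on the MOSE-L arrays (log2 scale). Mcm7 was singled out after its values were seen, so this difference is given with no test. The probe sets used for Mcm3, Mcm7 and Gins2 are of a type (suffix s) that can match several transcripts. Those of Mcm4, Mcm5, Rrm2, Fen1 and Pold1 are of a type (suffix x) that can match similar sequences elsewhere.

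The promoters of Mcm5, Mcm6, Mcm7 and Rrm2 are printed because the changes of these genes in MOSE-L cells ranged widely and the E2F binding letters can be compared between them. They run 5' to 3' on the strand of the gene, from 250 bases before to 50 bases after the RefSeq start, in assembly GRCm38.p6, at chr8:75109259-75109558 (plus strand) for Mcm5, chr1:128359656-128359955 (minus strand) for Mcm6, chr5:138171834-138172133 (minus strand) for Mcm7 and chr12:24708004-24708303 (plus strand) for Rrm2. Capitals mark the E2F letters TTTCCCGC, TTTCGCGC, TTTGCCGC or TTTGGCGC on either strand, so that a match on the opposite strand reads, for example, as GCGCGAAA.
Mcm5: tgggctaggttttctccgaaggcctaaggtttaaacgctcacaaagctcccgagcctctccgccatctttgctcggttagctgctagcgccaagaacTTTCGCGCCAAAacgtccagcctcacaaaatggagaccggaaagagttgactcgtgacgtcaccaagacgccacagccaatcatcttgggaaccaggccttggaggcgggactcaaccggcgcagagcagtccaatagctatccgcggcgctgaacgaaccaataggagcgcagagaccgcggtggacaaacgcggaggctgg
Mcm6: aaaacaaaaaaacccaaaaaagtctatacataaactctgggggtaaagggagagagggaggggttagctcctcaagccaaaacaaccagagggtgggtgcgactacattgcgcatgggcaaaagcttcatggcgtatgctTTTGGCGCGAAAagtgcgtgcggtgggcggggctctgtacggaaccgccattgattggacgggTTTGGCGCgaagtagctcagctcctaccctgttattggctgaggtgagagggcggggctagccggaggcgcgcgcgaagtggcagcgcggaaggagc
Mcm7: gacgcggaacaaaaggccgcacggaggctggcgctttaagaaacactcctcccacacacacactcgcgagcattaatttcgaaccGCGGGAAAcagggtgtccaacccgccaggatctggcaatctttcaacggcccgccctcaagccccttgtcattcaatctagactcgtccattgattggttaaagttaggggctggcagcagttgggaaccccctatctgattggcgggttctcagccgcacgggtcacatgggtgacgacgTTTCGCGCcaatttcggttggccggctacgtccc
Rrm2: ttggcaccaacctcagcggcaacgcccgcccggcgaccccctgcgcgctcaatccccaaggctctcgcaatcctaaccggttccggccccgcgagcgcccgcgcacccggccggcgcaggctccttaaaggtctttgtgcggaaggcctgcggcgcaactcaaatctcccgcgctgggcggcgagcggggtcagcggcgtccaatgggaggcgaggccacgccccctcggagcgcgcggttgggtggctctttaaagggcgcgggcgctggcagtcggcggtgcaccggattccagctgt

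The Mcm5 window held 2 matches that overlap each other, starting 153 and 149 bases before the start, and the Mcm6 window held 3, starting 110, 106 and 47 bases before it, of which the first 2 overlap. The Mcm7 window printed here held 2, starting 165 bases before and at base 17 after its start, while a second RefSeq window of Mcm7, at chr5:138171217-138171516 (minus strand), held none, and that of Rrm2, with the largest fall in MOSE-L against MOSE-E cells, held none. RefSeq windows were at hand for 36 of the 44 genes, with 40 windows in all, and 13 of the 40 (32.5%) held at least 1 E2F match. Among 8322 windows of all tested genes 4.37% did, and among all 32851 windows of that length 2.26% did. The 13 genes were Orc1, Cdc6, Cdt1, Mcm3, Mcm5, Mcm6, Mcm7, Gins3, Rfc3, Pola1, Pold1, Lig1 and Brca2. Of the 12 of these that were tested, 6 fell in MOSE-L against MOSE-E cells, with a median change of -1.19, and of 21 tested genes with a window and no match 6 fell, with a median of -0.90. In MOSE-L against MOSE-I cells 8 of the 12 fell, with a median of -1.30, and 15 of the 21, with a median of -1.41, so that the order of the medians was the other way round. A match is a description of letters and not a measured site.

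Of the 4 tested helicase partners, 3 fell in MOSE-L against MOSE-I cells and 0 in MOSE-L against MOSE-E cells. Cdc45, which joins the MCM ring with GINS to form the active helicase, measured 614, 799.8 and 669 in MOSE-E, 1129.7, 1006 and 1319 in MOSE-I and 465, 717 and 108 in MOSE-L cells. The MOSE-I arrays were the 3 highest, MOSE-L replicate 2 lay among the MOSE-E arrays, and the change was -1.59 ± 0.45 (adjusted p = 0.0266) in MOSE-L against MOSE-I and -0.90 ± 0.45 (adjusted p = 0.16) in MOSE-L against MOSE-E cells. Gins1, a GINS subunit, gave 1059, 859 and 814 in MOSE-E, 1686, 1530.4 and 1752 in MOSE-I and 569, 862 and 264 in MOSE-L cells. Here too the MOSE-I arrays stood above all others and MOSE-L replicate 2 reached the MOSE-E range, with -1.60 ± 0.32 (adjusted p = 0.00712) in MOSE-L against MOSE-I cells. Gins4 gave 1639.5, 978 and 1025 in MOSE-E, 2223, 1887 and 1929 in MOSE-I and 1388, 940.0 and 562 in MOSE-L cells, with MOSE-L replicate 1 inside the MOSE-E range, and fell in MOSE-L against MOSE-I cells by 1.11 ± 0.30 (adjusted p = 0.0231). Gins2 changed by -1.29 ± 0.45 (adjusted p = 0.0548) between these stages and was not called. On the other tested probe set of Gins2 that change was -1.57 (adjusted p = 0.0317), which was called. The calls of Cdc45 and Gins4 ended without MOSE-L replicate 3, at -0.93 (adjusted p = 0.0226) and -0.79 (adjusted p = 0.0605), and without any 1 MOSE-I array for Cdc45 and MOSE-I replicate 1 or 3 for Gins4 (highest adjusted p = 0.0817 and 0.0671). Against MOSE-E cells none of the 4 was called in MOSE-L cells, at -0.98 to -0.37, and in MOSE-I cells all 4 changes were positive, at 0.31 to 0.83. Gins3 stayed under 500 on all arrays, with a highest signal of 351, and was not tested.

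Of the 6 genes of the sliding clamp and its loader, 5 fell in MOSE-L against MOSE-I cells and 0 in MOSE-L against MOSE-E cells. Pcna, the clamp that tethers the polymerases, measured 15637, 14284 and 14902 in MOSE-E, 29082, 24346 and 27786 in MOSE-I and 13437, 15167 and 5678 in MOSE-L cells. The 3 MOSE-I arrays stood well above the rest, MOSE-L replicates 1 and 2 lay near the MOSE-E arrays, and only MOSE-L replicate 3 was far below them. Pcna changed by 0.85 ± 0.31 (adjusted p = 0.0951) in MOSE-I against MOSE-E cells, not called, and fell by 1.36 ± 0.31 (adjusted p = 0.0121) in MOSE-L against MOSE-I cells, while its change of -0.51 ± 0.31 (adjusted p = 0.242) in MOSE-L against MOSE-E cells was not called. Without MOSE-L replicate 3 those changes were 0.85 (adjusted p = 0.00726), -0.92 (adjusted p = 0.0055) and -0.06 (adjusted p = 0.799), so that the call against MOSE-I cells ended on the size of the change alone.

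Rfc2, a small subunit of the clamp loader, measured 1472, 1102 and 1161 in MOSE-E, 2186, 2038 and 2326 in MOSE-I and 1069, 1474 and 489 in MOSE-L cells. Rfc3 measured 1378, 1011 and 965 in MOSE-E, 1949, 1661 and 1903 in MOSE-I and 986, 1061 and 264 in MOSE-L cells. In both genes MOSE-L replicates 1 and 2 lay near the MOSE-E arrays, and all 3 MOSE-L arrays lay below the MOSE-I arrays. Rfc4 measured 2578, 1738 and 1808 in MOSE-E, 2699, 3081 and 3432 in MOSE-I and 1704, 1586 and 452 in MOSE-L cells. Rfc5 measured 2315, 1839 and 1783 in MOSE-E, 2817, 2482 and 2811 in MOSE-I and 1239, 1723 and 358 in MOSE-L cells. The MOSE-L arrays of Rfc4 and Rfc5 lay below both earlier stages. These 4 subunits fell in MOSE-L against MOSE-I cells, with changes of -1.20 ± 0.32 (adjusted p = 0.0217) for Rfc2, -1.40 ± 0.40 (adjusted p = 0.0277) for Rfc3, -1.46 ± 0.40 (adjusted p = 0.0251) for Rfc4 and -1.49 ± 0.43 (adjusted p = 0.0275) for Rfc5. Against MOSE-E cells their changes in MOSE-L cells were -1.04 to -0.40 and not called. All 4 calls ended without MOSE-L replicate 3, at -0.77 (adjusted p = 0.0295), -0.81 (adjusted p = 0.0219), -0.87 (adjusted p = 0.0217) and -0.86 (adjusted p = 0.0194), on the size of the change, and without MOSE-I replicate 1 or 3, and for Rfc3, Rfc4 and Rfc5 also replicate 2 (highest adjusted p 0.0677, 0.0765, 0.0775 and 0.0763).

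Rfc1, the large subunit of the same loader, was not called in any comparison. It gave 944, 844 and 671 in MOSE-E, 1339, 1371 and 1206 in MOSE-I and 904, 1045 and 785 in MOSE-L cells. Its MOSE-I arrays were the 3 highest and its MOSE-L and MOSE-E arrays overlapped, with a change of 0.15 ± 0.18 (adjusted p = 0.576) in MOSE-L against MOSE-E cells (95% interval -0.26 to 0.55) and 0.65 ± 0.18 (adjusted p = 0.0489) in MOSE-I against MOSE-E cells, under the minimum change. Relative to the mean of Rfc2 to Rfc5 on the same array, Rfc1 stood at -0.08, 0.20 and -0.12 on the MOSE-E arrays, 0.06, 0.17 and -0.18 on the MOSE-I arrays and 0.46, 0.43 and 1.82 on the MOSE-L arrays (log2 scale, from the MOSE-E mean, with no test because Rfc1 was singled out after its values were seen).

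Of the 6 polymerase and primase genes, Pola1 and Pold1 fell in MOSE-L against MOSE-E cells, and Pola2, Pold1 and Prim1 fell in MOSE-L against MOSE-I cells. Pola1, the catalytic subunit of polymerase alpha, gave 686, 1033 and 979.8 in MOSE-E, 512, 644 and 706 in MOSE-I and 362, 679.8 and 213 in MOSE-L cells. All MOSE-L arrays lay below the MOSE-E arrays, with replicate 2 only just below the lowest of them, and overlapped the MOSE-I arrays, and Pola1 changed by -1.12 ± 0.33 (adjusted p = 0.0289) in MOSE-L against MOSE-E cells and by -0.63 ± 0.33 (adjusted p = 0.161) in MOSE-L against MOSE-I cells. Its partner subunit Pola2 gave 499, 708 and 482 in MOSE-E, 1492, 921 and 1149.7 in MOSE-I and 434, 651 and 230.0 in MOSE-L cells. The MOSE-I arrays of Pola2 were the 3 highest and the MOSE-L arrays overlapped those of MOSE-E, with -1.41 ± 0.32 (adjusted p = 0.0119) in MOSE-L against MOSE-I and 1.01 ± 0.32 (adjusted p = 0.0658) in MOSE-I against MOSE-E cells. Pold1, the catalytic subunit of the lagging-strand polymerase delta, measured 1385, 1799.8 and 1631 in MOSE-E, 1267, 1244 and 1301 in MOSE-I and 492, 981 and 289.9 in MOSE-L cells. On this probe set the stages of Pold1 did not overlap, with MOSE-E highest and MOSE-L lowest. It fell by 1.52 ± 0.32 (adjusted p = 0.00752) in MOSE-L against MOSE-E cells and by 1.20 ± 0.32 (adjusted p = 0.0228) in MOSE-L against MOSE-I cells. On the other tested probe set of Pold1, the MOSE-E arrays (846 to 1292) and MOSE-I arrays (1065 to 1239) overlapped. There the change in MOSE-L cells was -0.93 (adjusted p = 0.0326) against MOSE-E cells, under the minimum change. Against MOSE-I cells it was -1.06 (adjusted p = 0.022), which was called.

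Prim1, the catalytic primase subunit, measured 2699.8, 2481 and 2810.0 in MOSE-E, 3452, 2843 and 3113 in MOSE-I and 1457, 2366 and 497 in MOSE-L cells. All MOSE-L arrays were lower than all others, and Prim1 fell by 1.34 ± 0.42 (adjusted p = 0.0375) in MOSE-L against MOSE-I cells, while its change against MOSE-E cells was -1.11 ± 0.42 (adjusted p = 0.0712). Pole, the catalytic subunit of the leading-strand polymerase epsilon, and Prim2, the second primase subunit, were not called, at -1.25 and -0.90 in MOSE-L against MOSE-E cells. Without MOSE-L replicate 3 the changes of Pola1 and Pold1 against MOSE-E cells were -0.77 (adjusted p = 0.0771) and -1.14 (adjusted p = 0.0135), and those of Pold1 and Prim1 against MOSE-I cells were -0.82 (adjusted p = 0.0541) and -0.74 (adjusted p = 0.0445), of which that of Pold1 against MOSE-E cells remained called. The call of Pola1 also ended without MOSE-E replicate 2 or 3 or MOSE-L replicate 1, that of Pold1 against MOSE-I cells without any 1 MOSE-I array, and that of Prim1 without any 1 MOSE-I array and MOSE-E replicate 2 or 3 (highest adjusted p = 0.0995, 0.0663 and 0.099).

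The single-strand binding protein RPA coats unwound DNA with its 3 subunits. Rpa1, the large subunit, measured 11611, 8837 and 10739 in MOSE-E, 12604, 10168 and 8864 in MOSE-I and 5996, 5662 and 2279 in MOSE-L cells. Rpa2 measured 1199, 928 and 930.0 in MOSE-E, 1788, 1414 and 1675 in MOSE-I and 575, 721 and 169 in MOSE-L cells. In both genes every MOSE-L array lay below every other array. Rpa1 changed by -1.27 ± 0.33 (adjusted p = 0.0179) in MOSE-L against MOSE-E cells and -1.28 ± 0.33 (adjusted p = 0.0191) in MOSE-L against MOSE-I cells, and Rpa2 by -1.17 ± 0.38 (adjusted p = 0.0441) and -1.82 ± 0.38 (adjusted p = 0.00922), so that both fell in both comparisons. Rpa3, the small subunit, gave 2259, 1854 and 1966 in MOSE-E, 2420.2, 3679 and 3920.0 in MOSE-I and 2860.5, 1691 and 1823 in MOSE-L cells. The MOSE-L arrays of Rpa3 lay on both sides of the MOSE-E arrays, and its change of 0.03 ± 0.25 (adjusted p = 0.938), with a 95% interval of -0.52 to 0.58, was -0.01 with each array centred on its median. Relative to the mean of Rpa1 and Rpa2 on the same array, Rpa3 stood at -0.04, 0.05 and -0.01 on the MOSE-E arrays, -0.28, 0.63 and 0.70 on the MOSE-I arrays and 1.26, 0.41 and 2.07 on the MOSE-L arrays (log2 scale, from the MOSE-E mean, with no test, because Rpa3 was singled out after its values were seen). Without MOSE-L replicate 3 the changes of Rpa1 and Rpa2 against MOSE-E cells were -0.82 (adjusted p = 0.0173) and -0.61 (adjusted p = 0.0511), and that of Rpa1 against MOSE-I cells was -0.84 (adjusted p = 0.0208), none of them called. Single MOSE-E arrays also ended the MOSE-E calls of both (replicates 1 and 3 for Rpa1, each of the 3 for Rpa2), single MOSE-I arrays ended that of Rpa2, and MOSE-I replicate 1 ended the MOSE-I call of Rpa1 (highest adjusted p = 0.0634, 0.113 and 0.0625).

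Both Okazaki fragment maturation genes fell in MOSE-L against MOSE-I cells. Fen1, the flap endonuclease, measured 2469, 2676 and 3026 in MOSE-E, 7075, 4654 and 5146 in MOSE-I and 1560.3, 2416 and 917 in MOSE-L cells. The 3 stages did not overlap, with MOSE-I highest and MOSE-L lowest, although MOSE-L replicate 2 lay close to the lowest MOSE-E array. Fen1 changed by -1.83 ± 0.31 (adjusted p = 0.00332) in MOSE-L against MOSE-I cells, by 1.01 ± 0.31 (adjusted p = 0.0585) in MOSE-I against MOSE-E cells and by -0.82 ± 0.31 (adjusted p = 0.0699) in MOSE-L against MOSE-E cells, and only the first was called. Lig1, the ligase that joins the fragments, gave 1147, 1391 and 1153 in MOSE-E, 1646, 1402 and 1459 in MOSE-I and 557, 1163 and 416 in MOSE-L cells. MOSE-L replicate 2 of Lig1 lay within the MOSE-E range, and the gene changed by -1.15 ± 0.30 (adjusted p = 0.0198) in MOSE-L against MOSE-I cells, a call that ended at -0.85 (adjusted p = 0.0556) without MOSE-L replicate 3 and without MOSE-I replicate 1 or 3 (highest adjusted p = 0.0593).

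Nucleotide supply held the largest changes of the 41 genes, in Rrm2 and Tk1, and also Dut, which was not called in any comparison. Rrm2, the small subunit of ribonucleotide reductase, which makes deoxynucleotides, measured 19013, 17344 and 19141 in MOSE-E, 28736, 21336 and 20619 in MOSE-I and 5782, 8900.4 and 1041 in MOSE-L cells. Each MOSE-L array lay below each earlier array, with -2.27 ± 0.59 (adjusted p = 0.0178) in MOSE-L against MOSE-E and -2.60 ± 0.59 (adjusted p = 0.0121) in MOSE-L against MOSE-I cells, and without MOSE-L replicate 3 these were -1.36 (adjusted p = 0.00314) and -1.69 (adjusted p = 0.00163). Its call against MOSE-E cells ended without MOSE-E replicate 2 or 3 (highest adjusted p = 0.0584). Tk1, the thymidine kinase of the salvage pathway, gave 2750.2, 2437 and 2537 in MOSE-E, 4666, 5521 and 6799 in MOSE-I and 1347, 2007 and 197 in MOSE-L cells. Its MOSE-I arrays were the 3 highest, its MOSE-L arrays the 3 lowest, and MOSE-L replicate 3 differed from the mean of the other 2 MOSE-L arrays by -2.78 on the log2 scale, the largest such gap of the 41 genes. Tk1 changed by -2.66 ± 0.60 (adjusted p = 0.0119) in MOSE-L against MOSE-I cells, which was called, and by -1.56 ± 0.60 (adjusted p = 0.0763) in MOSE-L against MOSE-E and 1.11 ± 0.60 (adjusted p = 0.236) in MOSE-I against MOSE-E cells, which were not.

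Rrm1, the large subunit of the same reductase, measured 10106, 11794 and 12293 in MOSE-E, 7681, 7920.0 and 8285 in MOSE-I and 6118, 9380.1 and 2145 in MOSE-L cells. It had lower signals on all MOSE-I than on all MOSE-E arrays, unlike Rrm2, and changed by -1.18 ± 0.41 (adjusted p = 0.0547) in MOSE-L against MOSE-E cells, just above the threshold and not called. Dut, the enzyme that removes dUTP, gave 4246, 3095 and 3383 in MOSE-E, 7577, 6481 and 6302 in MOSE-I and 4202, 3409 and 3745 in MOSE-L cells. Its 3 MOSE-L arrays lay within the range of the MOSE-E arrays and differed little among themselves, with replicate 3 only 0.02 below the mean of the others on the log2 scale. Dut was higher on all MOSE-I arrays, at 0.92 ± 0.19 (adjusted p = 0.0161) against MOSE-E cells, under the minimum change, and its change in MOSE-L against MOSE-I cells was -0.83 ± 0.19 (adjusted p = 0.0118), also under it. Thymidylate synthase (Tyms) had a highest signal of 276 on the probe sets that name it alone and was not tested.

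**Figure D3:**
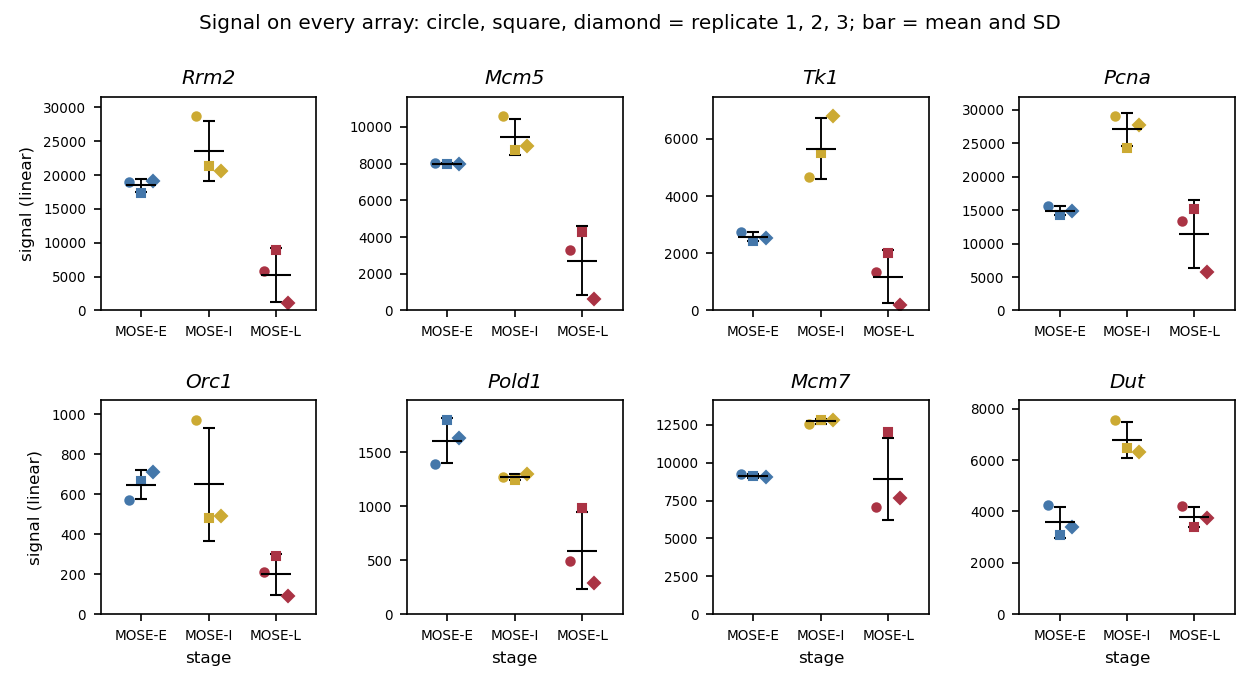
Linear signal of 8 genes on every array by stage, with replicates 1, 2 and 3 as circle, square and diamond and the mean ± SD of the 3 arrays as a bar, each panel on its own axis from 0. Rrm2, Mcm5, Tk1, Orc1 and Pold1 have all MOSE-L arrays below the earlier stages, Pcna has only replicate 3 far below the MOSE-E arrays, and the MOSE-L arrays of Mcm7 lie on both sides of the MOSE-E arrays and those of Dut among them.

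Chaf1b, a subunit of the chromatin assembly factor that puts histones on new DNA, measured 1519.5, 967 and 1027 in MOSE-E, 1845, 1228 and 1204 in MOSE-I and 547, 767 and 211 in MOSE-L cells. All MOSE-L arrays were the lowest, and Chaf1b changed by -1.25 ± 0.37 (adjusted p = 0.0309) in MOSE-L against MOSE-E and -1.53 ± 0.37 (adjusted p = 0.0159) in MOSE-L against MOSE-I cells. The first call ended without MOSE-L replicate 3, at -0.78 (adjusted p = 0.0631), and without any 1 MOSE-E array (highest adjusted p = 0.0932), and the second ended without MOSE-I replicate 1 (adjusted p = 0.056). Chaf1a, its large subunit, is named alone by no probe set and was not analysed here. Brca1, which serves homologous recombination at damaged forks, gave 426, 687 and 677 in MOSE-E, 614, 707 and 701 in MOSE-I and 159, 480.2 and 79.4 in MOSE-L cells. MOSE-L replicate 2 lay above MOSE-E replicate 1, so the stages overlapped, and Brca1 changed by -1.39 ± 0.42 (adjusted p = 0.0337) in MOSE-L against MOSE-E and -1.57 ± 0.42 (adjusted p = 0.0223) in MOSE-L against MOSE-I cells. Both calls ended without MOSE-L replicate 3, at -0.93 (adjusted p = 0.0939) and -1.12 (adjusted p = 0.0609), the first also without MOSE-L replicate 1, MOSE-I replicate 3 or MOSE-E replicate 2 or 3 and the second without any 1 MOSE-I array (highest adjusted p = 0.11 and 0.0663). Brca2, its partner in recombination, changed by -0.28 in MOSE-L against MOSE-E cells, and E2f1, a transcription factor of S phase entry, by -0.15, neither called.

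In MOSE-I against MOSE-E cells 6 of the 41 changes were negative. Rrm1 (-0.51), Pole (-0.50), Pola1 (-0.49) and Pold1 (-0.32) had negative changes under each scaling, while Orc1 (-0.06) and Brca2 (-0.06) turned positive with each array centred on its median. A second probe set gave 0.12 for Pold1 and -0.92 for Orc1. All MOSE-I arrays lay below all MOSE-E arrays in 2 of the 41 genes, Rrm1 and Pold1, as in 17.8% of all tested genes. At the other end, Tk1 (1.11), Fen1 (1.01), Pola2 (1.01), Dut (0.92), Pcna (0.85) and Gins1 (0.83) had the largest positive changes. None of these was called with all arrays.

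Where several probe sets measured a gene, the sign of the change was the same in most cases, while calls often differed. For the 20 genes with more than 1 tested probe set, signs differed in MOSE-L against MOSE-E cells in 2, Mcm7 (-0.36 to 0.03) and Rfc1 (-0.18 to 0.15). They differed in 3 in MOSE-I against MOSE-E cells, Pold1, Prim2 and Rpa1, and in 0 in MOSE-L against MOSE-I cells. The largest spread was 0.58 in MOSE-L against MOSE-E cells, for Pold1 (-1.52 to -0.93), and 1.20 in MOSE-L against MOSE-I cells, for Orc1 (-1.51 to -0.31). The call itself differed between the probe sets of a gene in 9 of the 20 in MOSE-L against MOSE-E cells and in 4 in MOSE-L against MOSE-I cells. Of the genes called against MOSE-E cells, Orc1, Mcm2, Mcm4, Mcm5, Mcm6, Pold1 and Rpa2 were not called on another tested probe set. Only Rpa1 and Rrm2 were called on more than 1 probe set and on all that were tested. In Mcm3 and Rrm1 a probe set other than the one used was called. With the mean over a gene's tested probe sets (and the median of their adjusted p) 10 and 28 genes were called lower in these comparisons, where 6.98% and 5.5% of all tested genes were. It added the calls of Rrm1 against MOSE-E cells and of Cdt1 and Gins2 against MOSE-I cells. That rule ended the calls against MOSE-E cells of Mcm2 (-0.87, adjusted p = 0.0284), Mcm4 (-1.24, adjusted p = 0.0699), Mcm6 (-1.17, adjusted p = 0.0677) and Rpa2 (-1.09, adjusted p = 0.100) and the call against MOSE-I cells of Orc1 (-0.91, adjusted p = 0.323), whose second probe set alone gave an adjusted p of 0.634.

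Other replication and S phase genes, a list of 64 with cyclins, E2F factors, licensing and repair genes, of which 55 were tested, were counted in the same way. In MOSE-L against MOSE-E cells 15 of the 55 fell and 1 rose, where 7.49% and 8.11% of all tested genes did. In MOSE-L against MOSE-I cells 17 of the 55 fell and 0 rose, where 6.04% and 7.38% of all tested genes did. In MOSE-I against MOSE-E cells 0 were called, where 2.29% of all tested genes rose and 3.61% fell. The medians were -0.71, -0.90 and 0.15. The largest falls against MOSE-E cells were in E2f7, Ccna2, Ccne2 and E2f8. E2f7, a repressor of E2F targets, gave 813, 1209 and 1104 in MOSE-E, 567, 472 and 464 in MOSE-I and 271, 379.8 and 17.2 in MOSE-L cells. Cyclin A2 (Ccna2), which acts in S phase and G2, gave 4727, 4481 and 4697 in MOSE-E, 5875, 3048 and 3291 in MOSE-I and 1783, 2099 and 198 in MOSE-L cells. Both had every MOSE-L array below every MOSE-E array, with changes of -2.36 ± 0.54 (adjusted p = 0.0108) for E2f7 and -2.24 ± 0.65 (adjusted p = 0.0289) for Ccna2. Cyclin E2 (Ccne2), of S phase entry, gave 2233, 1971 and 2384 in MOSE-E, 1496, 1327 and 1295 in MOSE-I and 614, 752 and 211 in MOSE-L cells. E2f8, the relative of E2f7, gave 902, 584 and 623 in MOSE-E, 578, 401 and 331 in MOSE-I and 196, 495 and 7.62 in MOSE-L cells. Ccne2 and E2f8 changed by -2.11 ± 0.34 (adjusted p = 0.00189) and -1.90 ± 0.63 (adjusted p = 0.0457) in MOSE-L against MOSE-E cells, and unlike most of the 41 genes these 4 did not have all MOSE-I arrays above the MOSE-E arrays. Pold4, the small subunit of polymerase delta, was the gene that rose, with 758, 585 and 497 in MOSE-E, 987, 1253 and 1549 in MOSE-I and 1941, 1283 and 1571 in MOSE-L cells and a change of 1.31 ± 0.23 (adjusted p = 0.00294) in MOSE-L against MOSE-E cells, and MOSE-L replicate 3 lay among the other MOSE-L arrays. With that array left out, 6 of the 55 fell in MOSE-L against MOSE-E and 8 in MOSE-L against MOSE-I cells. The medians were then -0.41 and -0.52, and 5.99% and 3.77% of all tested genes fell. Other single arrays left out gave 5 to 23 and 6 to 31, where 4.98% to 8.6% and 4.05% to 8.45% of all tested genes fell. E2f7, Ccne2 and Pold4 stayed called against MOSE-E cells whichever array was left out, while the call of Ccna2 ended without any 1 MOSE-E array (highest adjusted p = 0.0814) and that of E2f8 without any 1 array but MOSE-L replicate 2 (highest adjusted p = 0.117, and -1.01 without MOSE-L replicate 3). The changes of E2f7, Ccna2 and Ccne2 without MOSE-L replicate 3 were -1.54, -1.24 and -1.62.

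Mitosis and spindle genes, the next stage of the cycle, were set beside the replication genes as 40 further genes, of which 39 were tested. In MOSE-L against MOSE-E cells 25 fell and 1 (Pttg1) rose, where 7.49% and 8.11% of all tested genes did, with a median of -1.50. In MOSE-L against MOSE-I cells 18 fell and 0 rose, where 6.04% and 7.38% of all tested genes did, with a median of -1.47. In MOSE-I against MOSE-E cells 0 were called, where 2.29% of all tested genes rose and 3.61% fell. The median was 0.10, beside 0.42 for the replication genes. All MOSE-I arrays lay above all MOSE-E arrays in 9 of 39 (23.1%), near the 23.4% of all tested genes, beside 28 of 41. Survivin (Birc5), of the chromosomal passenger complex, gave 7619, 6080.0 and 6524 in MOSE-E, 10404, 8891 and 10004 in MOSE-I and 2775, 2456 and 242 in MOSE-L cells. Ube2c, a ubiquitin-conjugating enzyme of mitotic exit, gave 8399, 9975 and 10968 in MOSE-E, 11308, 7819.8 and 7927 in MOSE-I and 5146, 3162 and 598 in MOSE-L cells. Both had all MOSE-L arrays below the earlier stages and the lowest signal on MOSE-L replicate 3, with changes of -2.41 ± 0.67 (adjusted p = 0.0236) and -2.14 ± 0.58 (adjusted p = 0.0221) in MOSE-L against MOSE-E cells. Per array, the mitosis median was -0.92, -0.61 and -2.89 on MOSE-L replicates 1 to 3, beside -0.76, -0.19 and -1.91 for the replication genes. The mitosis counts lower without MOSE-L replicate 3 were 13 in MOSE-L against MOSE-E and 11 in MOSE-L against MOSE-I cells. Over all tested genes 5.99% and 3.77% then fell, and the mitosis medians were -0.78 and -0.71. The changes of Birc5 and Ube2c against MOSE-E cells were then -1.35 (adjusted p = 0.000911) and -1.26 (adjusted p = 0.00799). Other single arrays left out gave 4 to 32 and 5 to 33 mitosis genes lower in the MOSE-L comparisons, beside 4.98% to 8.6% and 4.05% to 8.45% of all tested genes. Leaving out MOSE-E replicate 2 or 3 ended the calls of Birc5 and Ube2c (replicate 1 also that of Birc5, highest adjusted p = 0.0675 and 0.0742). These medians describe lists that were not compared by a test.

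**Figure D4:**
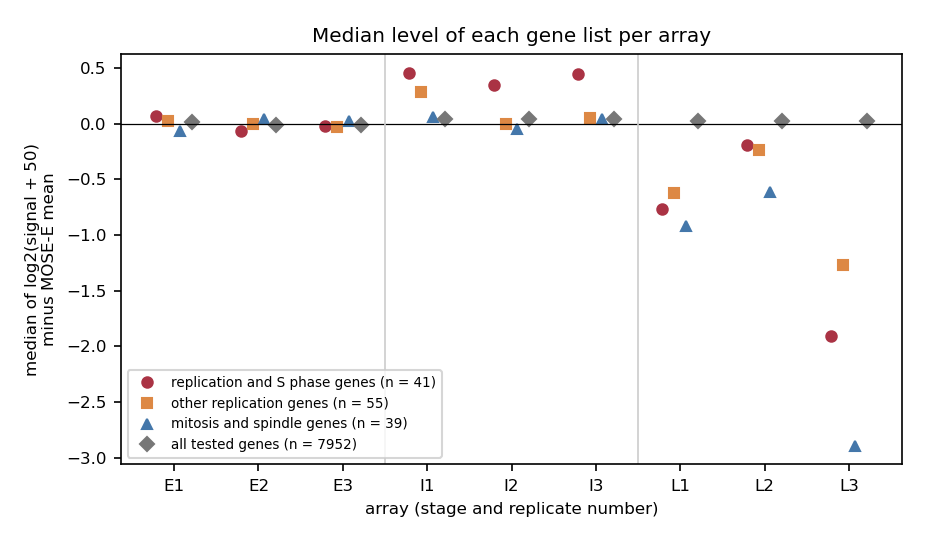
Median, per array, of log2(signal + 50) minus each gene's MOSE-E mean, for the replication and S phase genes, the other replication genes, the mitosis and spindle genes and all tested genes. On the MOSE-I arrays the replication genes lie at 0.35 to 0.46 and the mitosis genes at -0.04 to 0.06, and on MOSE-L replicate 3 they lie at -1.91 and -2.89, while all tested genes stay near 0.

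The same lists were set side by side for promoter letters. The CHR letters (TTTGAA or TTCGAA on either strand), known from mitotic genes, were in 6 of 40 windows of the 44 replication genes (15%), beside 77.8% of 36 windows of the mitosis genes and 14% of the windows of all tested genes. For the E2F letters the shares were 32.5% of the replication, 30.9% of the other replication and 8.33% of the mitosis windows. CCAAT letters on either strand were in 57.5% of the replication windows, 75% of the mitosis windows and 37.3% of those of all tested genes. These shares are a description with no test, since the windows were not matched for base composition.

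**Figure D5:**
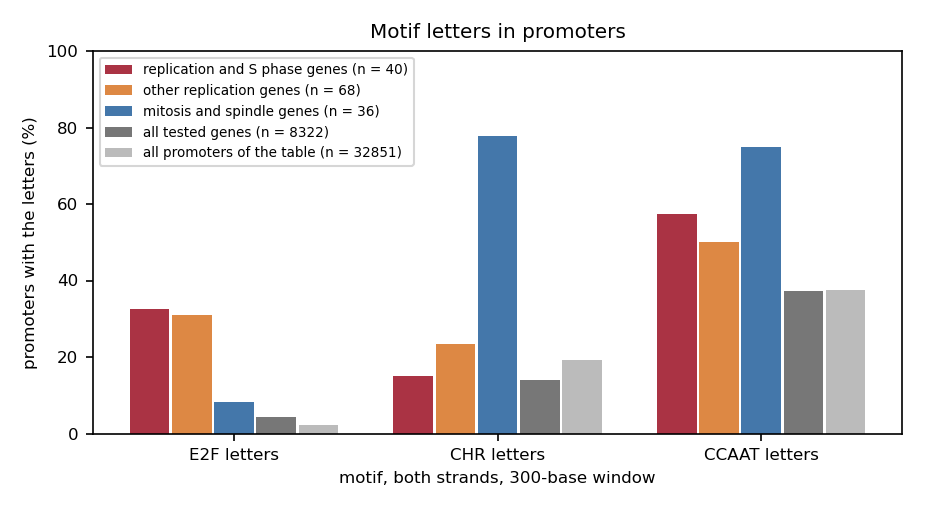
Percent of RefSeq promoter windows of 300 bases that hold the E2F, CHR or CCAAT letters on either strand, for the 3 gene lists, all tested genes and all windows of the table, with the number of windows in the legend. E2F letters are in 32.5% of replication and 8.33% of mitosis windows, and CHR letters in 15% of replication and 77.8% of mitosis windows.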

How the data were processed

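Total RNA of 9 cultures was hybridised to 1-colour arrays, 3 per stage. The deposited intensity values are linear signals per probe set that the authors made with MicroArray Suite 5.0 and scaled to a trimmed mean of 500 per array. Control probe sets (64) were left out of 45101, and the 13845 whose highest signal exceeded 500 were tested. Log2(signal + 50) was fitted with 1 mean per stage over all 9 arrays in limma 3.58.1 (R 4.3.3, variance trend, 6 residual degrees of freedom, prior degrees of freedom 4.9 at the median) with Benjamini-Hochberg adjustment. MAS 5.0 scaling assumes that most genes do not change, and 3 arrays per stage limit the precision.

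Probe sets named 1 gene in 34945 cases, several in 932 and none in 9211, and 34754 were matched to a RefSeq gene table by gene ID. Each gene is represented by its own tested probe set of highest mean signal. By the rule for named genes, all 44 genes are accounted for by role, called genes are given on every array, and of the other replication and the mitosis list the 4 and 2 called genes with the largest change are named. Genes named in other places were chosen after their values were seen. The 44 genes and both lists were chosen with earlier results of these data known. Promoter sequences (RefSeq, GRCm38.p6) were searched on both strands. The fit was tested on simulated data. Alternatives were another added value, scaling, filter, probe set rule, variance model or set of arrays, a replicate block, other call rules and leaving out each array.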

Additional observations from a re-analysis of the deposited data

How the results depend on the processing

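No median or named gene changed sign when called, under any alternative, while some changes that were not called did. Of the 3 counts of calls (13 lower between MOSE-L and MOSE-E, 27 lower between MOSE-L and MOSE-I, 0 between MOSE-I and MOSE-E cells), the first was 5 of 43 with no filter (3.41% of all genes), 4 of 41 with only the groups compared (6.41%) and 0 by the methods' t-test after Benjamini-Hochberg adjustment (2.02%), which also gave 0 between MOSE-L and MOSE-I cells (0.0503%). By that t-test without adjustment, at a fold over 2, the counts were 9 and 27 (7.07% and 5.45% of all genes), with 3 higher between MOSE-I and MOSE-E cells (3.07%). The count higher between MOSE-I and MOSE-E cells was 2 with no minimum change (5.31% of all genes) and 3 with only the groups compared (3.02%). Centring each array on its median moved the median of all genes to 0.17 between MOSE-I and MOSE-E and to -0.19 between MOSE-L and MOSE-I cells, and gave 3 genes higher between MOSE-I and MOSE-E cells (3.91% of all genes) with a median of 0.55. Single arrays left out in turn gave 2 to 25 genes lower between MOSE-L and MOSE-E, 10 to 32 lower between MOSE-L and MOSE-I and 0 to 3 higher between MOSE-I and MOSE-E cells, with medians of -1.35 to -0.44, -1.66 to -0.84 and 0.37 to 0.44. The shares of all tested genes were then 4.98% to 8.6%, 3.77% to 8.45% and 0.402% to 4.14%. Replicate numbers did not pair the arrays: deviations of same-numbered arrays correlated at -0.11 to 0.41, and the replicate block gave the same counts, 13, 27 and 0, with medians of -0.90, -1.34 and 0.42. The causes of these moves were not tested. Signals near the added 50 carry little information on fold.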

Other observations

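The signal of thymidylate synthase could be read only on a probe set that names both Tyms and the pseudogene Tyms-ps, so the transcripts cannot be told apart. It measured 2320.2, 2448 and 2602 in MOSE-E, 2755, 2555 and 2441 in MOSE-I and 1477, 1613 and 431 in MOSE-L cells. The 3 MOSE-L arrays were the lowest, with replicate 3 the lowest of all. The log2 change was -1.23 between MOSE-L and MOSE-E cells (adjusted p = 0.0372 from limma) and -1.30 between MOSE-L and MOSE-I cells (adjusted p = 0.0311). Changes without MOSE-L replicate 3 are not given for this probe set, although that array lay far below the other MOSE-L arrays.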
